A study of Mus musculus with 24 samples.

Results

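The Dusp and Spry genes studied here code for proteins that switch MAP kinase signalling off after it has been switched on. The 10 genes Dusp1, Dusp2, Dusp4, Dusp5, Dusp6, Dusp10, Dusp16, Spry1, Spry2 and Spry4 were taken by name, at a time when earlier results of these data were known. Their probes were found through the RefSeq transcript that the array files give for each spot. They had 11 probes of the 56605 on the array, 1 for each gene and 2 for Spry2. Of these 11 probes, 10 probes of 9 genes were tested, among 37684 tested probes in all, and the Dusp2 probe was too dim to be tested.

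The cells were TM3, an established mouse Leydig cell line that grows attached, and all 6 groups went through the same handling. They were detached, washed in buffer, suspended in Annexin V binding buffer and placed in electroporation cuvettes. The sham groups S0, S4 and S24 received no pulses. The groups E0, E4 and E24 received a nanosecond pulsed electric field (nsPEF) of 80 quasi-rectangular pulses, each 60 ns wide, at 14 kV/cm over 180 s. RNA was taken immediately, at 4 h or at 24 h, with 4 biological replicates per group, and each of the 24 samples was hybridised to an array of its own. The groups are samples of 1 cell line, so the p values measure the spread between these cultures. No untreated attached culture is among the samples, and 0 h is therefore the state of cells just after detachment and handling.

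Each of the 3 times had a slide to itself, and differences between times and between slides cannot be told apart. The nsPEF arrays took the second row of every slide, so treatment and array place cannot be told apart either. The raw 75th percentile of signal ranged from 202 to 533 units over the arrays. The share of probes well above background was 57.5 to 62.1% on sham arrays and 51.2 to 57.2% on nsPEF arrays. Of the 9 Leydig cell markers with a probe, 4 (Star, Cyp17a1, Nr5a1 and Gata4) were well above background on all 24 arrays. The other 5 (Cyp11a1, Hsd3b1, Hsd3b6, Hsd17b3 and Lhcgr) were so on none, which limits these cells as a model of steroid-producing Leydig cells. Of the 6 Sertoli cell markers, Amh, Dhh and Fshr were well above background on 2, 0 and 1 arrays. The other 3 (Sox9, Amhr2 and Wt1) were so on all 24. Of the mesenchymal markers 4 of 5 were so, of the epithelial 2 of 4 (Krt8 and Krt18), of the macrophage 2 of 4 (Cd68 and Csf1r) and of the endothelial 1 of 3. The defining genes Epcam, Cdh1, Ptprc and Adgre1 were well above background on 2, 1, 1 and 1 arrays. In sham cells at 0, 4 and 24 h the mean log2 level of Csf1r was 0.50, 2.15 and -0.03. That of Cd68, the other macrophage marker on all arrays, went the other way at 4 h, with 0.83, -0.08 and -0.34. Krt8 stood at -0.23, 1.58 and -0.89, and Krt18 at 0.09, 2.06 and 0.47. The part of these markers in the results was not tested.

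MAP kinase cascades carry signals from growth factors and stress to the nucleus through the kinases ERK, p38 and JNK. Dual-specificity MAP kinase phosphatases (MKPs, coded by Dusp genes) remove the activating phosphates from these kinases, and Sprouty proteins (coded by Spry genes) act further up, between receptor tyrosine kinases and ERK. Many of these genes are themselves induced by the kinases they restrain, so that their mRNA is widely read as a trace of recent MAP kinase activity. In Leydig cells, MAP kinases act downstream of luteinizing hormone and of growth factors.

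All levels below are log2 of the processed signal minus the 75th percentile of the array, so that 0 stands for that percentile and a difference of 1 is a doubling. A level depends on the probe as well as on the mRNA, and levels are compared only within 1 probe. In bulk RNA, fewer cells with a transcript and less transcript per cell cannot be told apart. A probe is called changed at an adjusted p under 0.05 from limma over all 37684 tested probes.

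The first question was how the feedback genes moved over 24 h in cells that had been detached and returned to culture. All 10 tested probes differed between the 3 times in limma's F test, as did 80.2% of all tested probes. From 0 to 4 h in sham cells 7 probes rose and 3 fell, beside 59.1% of all tested probes called in either direction (29.4% higher and 29.7% lower). In nsPEF cells the counts were again 7 and 3, beside 61.3% of all (33.5% higher and 27.8% lower). The median difference of the 10 probes was 0.63 in sham and 0.72 in nsPEF cells, and the medians over all tested probes were -0.01 and 0.09. With so many probes called, the count of members says little by itself, and the results lie in the sizes and directions of the single genes. The members fell into 3 courses: a steep fall of Dusp1, on the percentile scale a level highest at 4 h in Dusp4, Dusp5, Dusp6, Dusp10, Spry1 and Spry2, and a smaller fall of Dusp16 and Spry4 at 4 h.

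**Figure D1:**
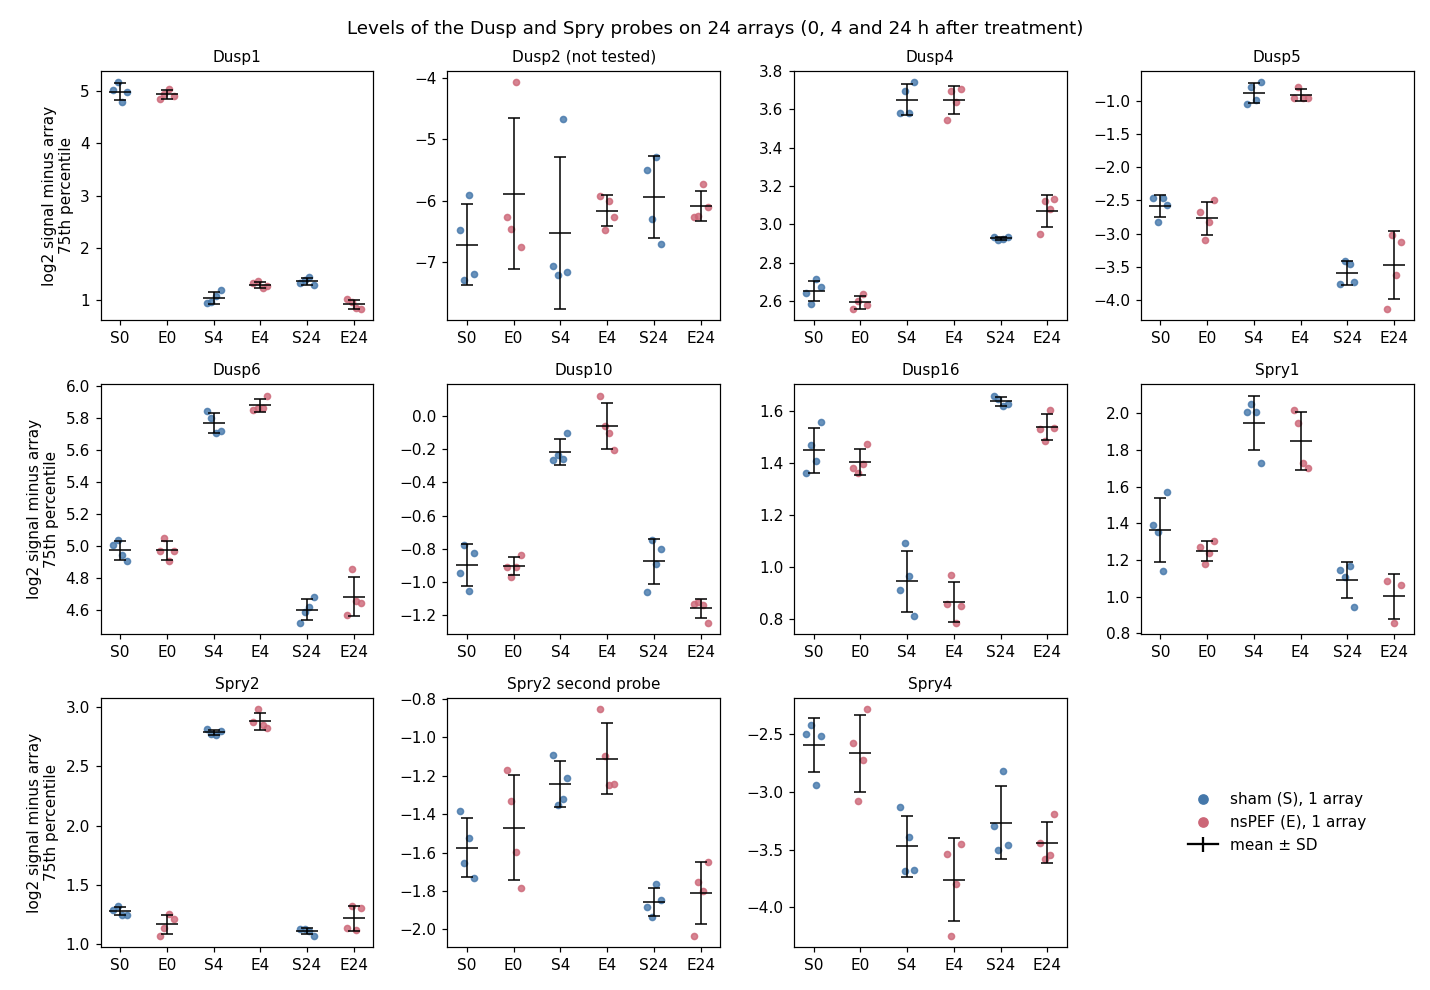
Level of each Dusp and Spry probe on every array: the y axes give log2 signal minus the array's 75th percentile, the x axes the 6 groups, each dot is 1 array and the black bars are mean ± SD (n = 4, and n = 3 for Spry1 in E24). Dusp1 stood between 4.78 and 5.17 at 0 h and between 0.83 and 1.44 afterwards, Dusp5, Dusp6, Dusp10, Spry1 and Spry2 peaked at 4 h on this scale, and Dusp2 was near the background on most arrays.

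Dusp1 codes for MKP-1, a nuclear phosphatase of p38, JNK and ERK and a classical immediate-early gene. Its level in the 4 sham arrays at 0 h was 5.01, 5.17, 4.78 and 4.98, and in the 4 nsPEF arrays 4.85, 4.94, 5.04 and 4.91. At 4 h the sham arrays stood at 0.95, 0.96, 1.08 and 1.19, and the nsPEF arrays at 1.33, 1.36, 1.23 and 1.27. At 24 h the sham arrays stood at 1.32, 1.38, 1.44 and 1.29, and the nsPEF arrays at 1.03, 0.97, 0.86 and 0.83. All 8 arrays at 0 h lay far above all 16 later arrays, with no overlap. From 0 to 4 h Dusp1 fell by 3.94 ± 0.07 (SE) on the log2 scale in sham cells, a 15.4-fold fall (limma adjusted p = 2.74e-19), and by 3.64 ± 0.07 in nsPEF cells, a 12.5-fold fall (limma adjusted p = 8.13e-19). Only 27 of the 37684 tested probes had a lower difference in sham cells and 36 in nsPEF cells. At 24 h the level was still lower than at 0 h by 12.4-fold in sham and 16.2-fold in nsPEF cells. The high level was thus found in the cells sampled immediately after handling, in sham and nsPEF alike.

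The 250 bases before the start of Dusp1 are shown because this member moved most. They lie at chr17:26508473-26508722 (RefSeq, GRCm38.p6, minus strand) and are written 5′ to 3′ along the gene, with matches to the motifs described below in capitals.
Dusp1: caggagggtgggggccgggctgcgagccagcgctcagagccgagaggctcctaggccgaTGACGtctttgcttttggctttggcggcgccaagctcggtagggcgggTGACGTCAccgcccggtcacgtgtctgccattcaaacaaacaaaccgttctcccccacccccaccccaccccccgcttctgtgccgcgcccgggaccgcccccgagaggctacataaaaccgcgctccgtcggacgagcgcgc
The 5 motifs searched on both strands were the full cAMP response element TGACGTCA, its shorter core TGACG, the AP-1 motif TGAGTCA, the ETS motif CCGGAAG and the CArG box, to which serum response factor binds. The window held 1 full cAMP response element, 143 to 136 bases before the start, and 1 further core at 191 to 187. The full element contains a core on each strand. A full element was found in 1.55% of all 32841 promoter windows of this length and a core in 17.8%.

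The genes whose profile over the 24 arrays was most like that of Dusp1, among 12245 non-member genes well above background on all arrays, were Zfp36 (Pearson r = 0.99), Jun (r = 0.99) and Ppp1r15a (r = 0.99). Zfp36 codes for a protein that destabilises mRNA, Jun for an AP-1 subunit and Ppp1r15a for a stress-induced subunit of protein phosphatase 1. In sham cells these 3 genes differed between 4 and 0 h by -4.44, -3.78 and -2.28. These correlations are a description with no test, since the 24 arrays share the step from the slide of 0 h to the slides of the later times.

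Dusp5 codes for a nuclear phosphatase that acts on ERK and is itself an ERK-induced gene. At 0 h the sham arrays gave -2.47, -2.82, -2.46 and -2.57 for Dusp5, and the nsPEF arrays -2.67, -3.09, -2.82 and -2.50. At 4 h the sham arrays gave -1.04, -0.79, -0.98 and -0.71, and the nsPEF arrays -0.95, -0.78, -0.95 and -0.96. At 24 h the sham arrays gave -3.77, -3.42, -3.45 and -3.72, and the nsPEF arrays -4.14, -3.01, -3.63 and -3.13. All 8 arrays at 4 h lay above all others, and the nsPEF arrays at 24 h were the most spread out. Dusp5 rose by 1.70 ± 0.18 (SE) in sham cells (3.25-fold, limma adjusted p = 7.7e-08) and by 1.86 ± 0.18 in nsPEF cells (3.64-fold, limma adjusted p = 1.93e-08). Between 4 and 24 h sham cells lost this rise again, with a log2 difference of -2.71 ± 0.18, and nsPEF cells did so with -2.57 ± 0.18. The level at 24 h was below that at 0 h, with a difference of -1.01 in sham (limma adjusted p = 0.000196) and -0.71 in nsPEF cells (limma adjusted p = 0.00397). Scaling on the spike-in probes instead of the 75th percentile gave -0.31 and -0.23 and lost both calls (adjusted p = 0.0977 and 0.234), and the nsPEF call was also lost without replicate 1 of all groups (adjusted p = 0.053).

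The promoter window of Dusp5, at chr19:53528895-53529144 (GRCm38.p6, plus strand), is shown because it was the only member window with a CArG box.
Dusp5: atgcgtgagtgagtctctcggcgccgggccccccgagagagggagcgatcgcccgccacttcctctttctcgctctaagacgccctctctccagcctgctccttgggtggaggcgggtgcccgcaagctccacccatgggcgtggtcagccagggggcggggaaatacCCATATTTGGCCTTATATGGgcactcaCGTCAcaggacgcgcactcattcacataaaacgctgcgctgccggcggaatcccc
It held 2 adjoining CArG boxes, 82 to 73 and 72 to 63 bases before the start, and 1 core of the cAMP response element on the opposite strand at 55 to 51. A CArG box was present in 1.47% of all windows.

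Spry2 codes for a Sprouty protein that dampens signalling from fibroblast growth factor receptors. Its brighter probe stood at 1.29, 1.32, 1.25 and 1.25 in sham and 1.07, 1.14, 1.25 and 1.21 in nsPEF arrays at 0 h. It stood at 2.81, 2.77, 2.77 and 2.80 in sham and 2.87, 2.98, 2.85 and 2.82 in nsPEF arrays at 4 h. At 24 h it stood at 1.13, 1.13, 1.11 and 1.07 in sham and 1.14, 1.32, 1.12 and 1.30 in nsPEF arrays. The 8 arrays at 4 h ranged from 2.77 to 2.98 and the other 16 from 1.07 to 1.32. The rise to 4 h was 1.51 ± 0.05 (SE) in sham cells (2.85-fold, limma adjusted p = 1.95e-15) and 1.71 ± 0.05 in nsPEF cells (3.28-fold, limma adjusted p = 2.74e-16). The second Spry2 probe rose as well, but by only 0.33 ± 0.12 in sham (limma adjusted p = 0.0236) and 0.36 ± 0.12 in nsPEF cells (limma adjusted p = 0.0141). The probes for this transcript thus gave the same direction at 4 h and differed in size by over 1 on the log2 scale. The call of the second probe in sham was lost without sham replicate 2 or 4 at 0 h or sham replicate 1 at 4 h, with adjusted p of 0.0593, 0.0764 and 0.0743, and that in nsPEF without nsPEF replicate 4 at 0 h or replicate 1 at 4 h, with adjusted p of 0.0696 and 0.0625. Both calls were also lost with the percentile taken over probes detected on all arrays, at 0.21 in sham and 0.26 in nsPEF cells (adjusted p = 0.132 and 0.0627). Normexp background correction gave 0.17 in sham (adjusted p = 0.145), and the calls were lost as well without replicate 2, 3 or 4 of all groups in sham (adjusted p = 0.0857, 0.0604 and 0.0956) and without replicate 3 or 4 in nsPEF (adjusted p = 0.0642 and 0.0625).

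Dusp6 codes for MKP-3, a cytoplasmic phosphatase specific for ERK whose mRNA is a much-used readout of ERK activity. It stood at 5.01, 5.04, 4.94 and 4.91 in sham and 4.97, 5.05, 4.91 and 4.97 in nsPEF arrays at 0 h. It stood at 5.84, 5.80, 5.71 and 5.72 in sham and 5.85, 5.86, 5.86 and 5.94 in nsPEF arrays at 4 h. At 24 h it stood at 4.52, 4.59, 4.62 and 4.68 in sham and 4.57, 4.86, 4.66 and 4.65 in nsPEF arrays. The 3 times did not overlap. Dusp6 rose by 0.79 ± 0.06 (SE) to 4 h in sham (1.73-fold, limma adjusted p = 1.63e-10) and by 0.90 ± 0.06 in nsPEF cells (1.87-fold, limma adjusted p = 2.08e-11), and fell by 1.16 and 1.19 from 4 to 24 h. The genes most like Dusp6 over the 24 arrays were Igfbp6, Pdlim1 and Arid5a, each at r = 0.99.

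The windows of Dusp6 at chr10:99262981-99263230 (plus strand) and Spry2 at chr14:105896820-105897069 (minus strand) are shown beside that of Dusp5, since these 3 genes peaked together at 4 h.
Dusp6: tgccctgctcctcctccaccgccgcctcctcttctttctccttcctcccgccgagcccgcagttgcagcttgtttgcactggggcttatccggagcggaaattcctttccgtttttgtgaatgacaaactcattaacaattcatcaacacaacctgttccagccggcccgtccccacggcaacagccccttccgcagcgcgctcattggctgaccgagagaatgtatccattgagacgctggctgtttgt
Spry2: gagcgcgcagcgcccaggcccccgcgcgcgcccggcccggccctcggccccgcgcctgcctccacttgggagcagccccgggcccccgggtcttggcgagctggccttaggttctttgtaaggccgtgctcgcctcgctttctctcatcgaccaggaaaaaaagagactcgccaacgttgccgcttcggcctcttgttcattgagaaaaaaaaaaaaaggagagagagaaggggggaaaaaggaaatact
None of the 5 motifs was found in either window, which says only that these letters are absent from these 250 bases. RefSeq promoter entries matched 8 of the 10 members and not Dusp4 and Spry4. Of the 8 windows, 1 held a full cAMP response element (Dusp1), 3 a core (Dusp1, Dusp5 and Dusp16) and 1 a CArG box (Dusp5). An AP-1 or ETS motif was found in 0 of 8 windows, beside 4.46% and 6.91% of all windows.

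The other MAP kinase phosphatases that rose at 4 h were Dusp4 and Dusp10. Dusp4 codes for MKP-2, a nuclear phosphatase. It ranged from 2.56 to 2.71 on the 8 arrays at 0 h and from 3.55 to 3.74 at 4 h. It rose by 1.00 ± 0.05 (SE) in sham (2.00-fold, limma adjusted p = 7.14e-13) and by 1.05 ± 0.05 in nsPEF cells (2.08-fold, limma adjusted p = 2.89e-13). Dusp4 alone of the members with a rise was still above its level at 0 h on all arrays at 24 h on the percentile scale, by 0.27 ± 0.05 in sham (limma adjusted p = 0.000246) and 0.48 ± 0.05 in nsPEF cells (limma adjusted p = 3.02e-07). Dusp10 codes for MKP-5, which acts on p38 and JNK. It ranged from -1.06 to -0.77 at 0 h and from -0.27 to 0.12 at 4 h, a rise of 0.68 ± 0.08 in sham (limma adjusted p = 1.37e-07) and 0.84 ± 0.08 in nsPEF cells (limma adjusted p = 5.8e-09). Spry1, the other Sprouty gene with a rise, ranged from 1.14 to 1.57 at 0 h and from 1.70 to 2.05 at 4 h. It rose by 0.59 ± 0.09 in sham (limma adjusted p = 2.41e-05) and by 0.60 ± 0.09 in nsPEF cells (limma adjusted p = 1.83e-05). The Spry1 spot of nsPEF replicate 1 at 24 h was marked by the software as not uniform or deviating and left out, so E24 holds 3 values.

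Dusp16 and Spry4 were lower at 4 h. Dusp16 codes for MKP-7, a phosphatase of JNK and p38. It ranged from 1.36 to 1.56 at 0 h, from 0.79 to 1.09 at 4 h and from 1.48 to 1.66 at 24 h. It fell by 0.50 ± 0.06 (SE) in sham (limma adjusted p = 1.52e-07) and by 0.54 ± 0.06 in nsPEF cells (limma adjusted p = 5.84e-08), and then rose by 0.69 and 0.67 to 24 h. Its profile over the 24 arrays ran against those of Dusp5, Dusp6 and Spry2, with Pearson r of -0.94, -0.97 and -0.95 as a description.

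Spry4, a Sprouty gene that is itself a usual target of fibroblast growth factor signalling, stood at -2.50, -2.42, -2.94 and -2.52 in sham and -2.58, -3.08, -2.72 and -2.29 in nsPEF arrays at 0 h. At 4 h it stood at -3.13, -3.69, -3.39 and -3.68 in sham and -3.54, -4.25, -3.80 and -3.46 in nsPEF arrays. At 24 h it stood at -3.29, -3.51, -2.82 and -3.46 in sham and -3.45, -3.58, -3.55 and -3.19 in nsPEF arrays. The arrays at 4 h lay below those at 0 h, and those at 24 h overlapped both. Spry4 fell by 0.88 ± 0.20 (SE) in sham (limma adjusted p = 0.000698) and by 1.09 ± 0.20 in nsPEF cells (limma adjusted p = 6.98e-05). The probe was well above background on 22 arrays, and on only 2 of 4 in E4, so the size of the nsPEF difference rests in part on signal near background. With normexp background correction the differences were -0.48 in sham and -0.35 in nsPEF cells, both still called (adjusted p = 0.000638 and 0.00905). Its change to 4 h ran against that of Spry1 and Spry2. The genes most like Spry4 were Aamdc, Oxr1 and Stambp, at r = 0.89, 0.89 and 0.88.

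Dusp2 codes for PAC-1, a phosphatase known from activated immune cells. It was well above background on 2 of 24 arrays, nsPEF replicate 3 at 0 h with -4.07 and sham replicate 3 at 4 h with -4.67. The other 22 arrays ranged from -7.30 to -5.28, so no comparison of Dusp2 was made.

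**Figure D2:**
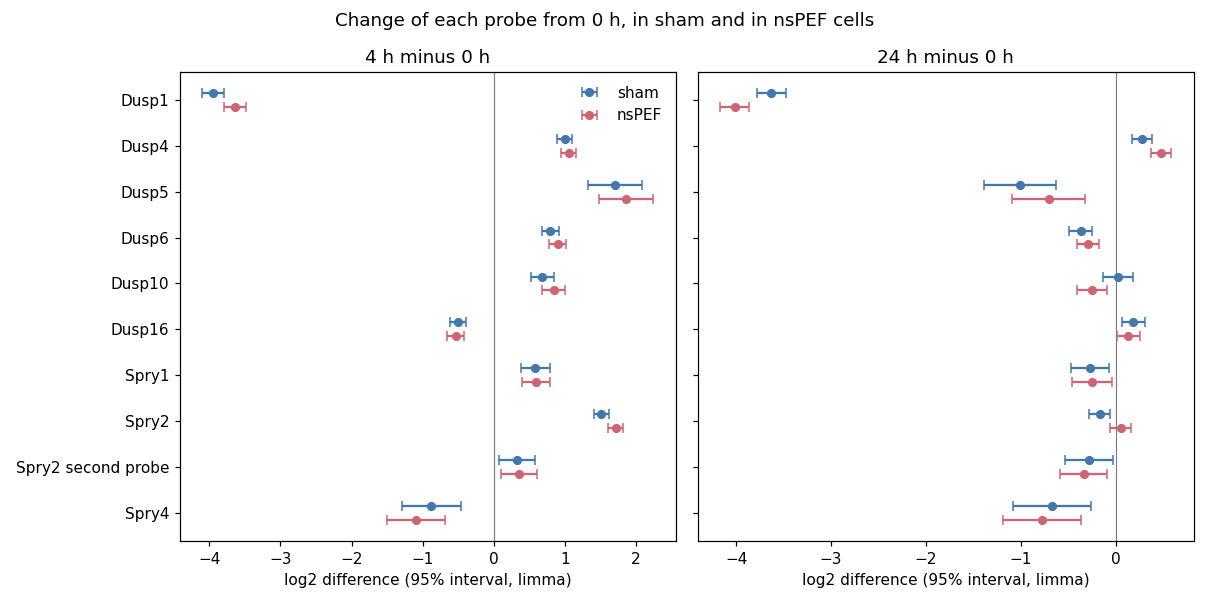
Change of each tested probe from 0 h: the x axes give the log2 difference with its 95% interval from limma (n = 4 per group, 3 for Spry1 in E24), at 4 h on the left and 24 h on the right, in sham and in nsPEF cells. Dusp1 stood between -4.02 and -3.63 in all 4 comparisons, 7 probes lay above 0 at 4 h, and at 24 h most lay at or below 0 on the percentile scale, where spike-in scaling turned the direction of Dusp6, Spry1 and the second Spry2 probe in both treatments, of the brighter Spry2 probe and Spry4 in sham and of Dusp10 in nsPEF.

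At 24 h compared with 0 h in sham cells 2 probes were higher and 6 lower, beside 36.6% of all tested probes called (16.9% higher and 19.7% lower), and in nsPEF cells 1 was higher and 6 lower, beside 42.2% (23.9% higher and 18.3% lower). Scaling on the spike-in probes instead of the 75th percentile moved the median of all tested probes in these comparisons to 0.70 in sham and 0.54 in nsPEF cells, which is larger than most of the members' own differences at 24 h. With that scaling 7 member probes were called higher and 1 lower in sham cells, beside 74.8% and 1.47% of all tested probes, and 5 higher and 1 lower in nsPEF cells, beside 64.9% and 3.46%. The differences given for 24 h are therefore relative to the bulk of the probes. On the percentile scale Dusp6 was lower at 24 h by 0.37 ± 0.06 (SE) in sham (limma adjusted p = 3.49e-05) and by 0.29 ± 0.06 in nsPEF cells (limma adjusted p = 0.000382), while with spike-in scaling it was higher by 0.33 and 0.19, which is still 0.37 and 0.35 less than the median probe. Spry4 was lower by 0.67 ± 0.20 in sham (limma adjusted p = 0.0113) and by 0.77 ± 0.20 in nsPEF cells (limma adjusted p = 0.00374), and spike-in scaling gave 0.03 and -0.29. The sham arrays of Spry4 overlapped, and the sham call was lost without replicate 1, 2 or 4 of all groups (adjusted p = 0.0778, 0.0546 and 0.0576). Dusp16 was higher by 0.19 ± 0.06 in sham (limma adjusted p = 0.0133). This call was lost without sham replicate 1 at 0 h (adjusted p = 0.0518) and without replicate 1 or 3 of all groups (adjusted p = 0.149 and 0.0928). In nsPEF cells Dusp16 differed by 0.13 ± 0.06 (limma adjusted p = 0.0621). It was called there without nsPEF replicate 4 at 0 h or without sham replicate 2 or 4 at 4 h (adjusted p = 0.0484, 0.041 and 0.0407). The fall of Dusp1 kept its direction under every alternative that was run. Some of these, such as leaving out an array of another group, cannot move it. The difference lay between -3.73 and -2.93 in sham and between -4.08 and -3.54 in nsPEF cells.

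From 4 to 24 h in sham cells 2 probes rose and 7 fell, beside 57.7% of all tested probes called (27.8% higher and 29.9% lower). In nsPEF cells 1 rose and 8 fell, beside 56.6% (27.5% higher and 29% lower). Dusp16 was the probe that rose in both, and the 7 probes that had risen to 4 h fell in both on the percentile scale. Spike-in scaling, with medians over all tested probes of 0.66 in sham and 0.37 in nsPEF cells, called 3 higher and 3 lower in sham, beside 64.3% and 7.57% of all, and 2 higher and 6 lower in nsPEF cells, beside 48.6% and 12.2%. In sham it lost the calls of Dusp4 (-0.07, adjusted p = 0.286), Dusp10 (-0.0072, adjusted p = 0.948) and Spry1 (-0.21, adjusted p = 0.112) and turned the second Spry2 probe to 0.04. In nsPEF cells it lost that of the second Spry2 probe (-0.30, adjusted p = 0.0532). It called Spry4 higher by 0.86 in sham and 0.72 in nsPEF cells (adjusted p = 0.00136 and 0.00695). Dusp5, Dusp6 and the brighter Spry2 probe fell in both treatments under both scalings. Dusp1 was the probe that went opposite ways, as described next.

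The second question was whether the electric pulses changed these genes. At 0 h, 0 of 10 probes were called between nsPEF and sham cells in limma, beside 0.127% of all tested probes, and 1 probe, for Spry2, had an unadjusted p under 0.05. At 4 h 0 of 10 were called in limma, beside 3.31% of all, and 1, for Dusp1, had an unadjusted p under 0.05. At 24 h 2 of 10 were called, both lower in nsPEF cells, beside 4.82% of all in either direction and 2.18% lower, and 4 had an unadjusted p under 0.05. The differences ranged from -0.19 to 0.10 at 0 h, from -0.29 to 0.25 at 4 h and from -0.44 to 0.14 at 24 h. The widest 95% intervals, those of Spry4, reached 0.41 to either side, and the Spry4 interval at 4 h ran from -0.70 to 0.12. Averaged over the 3 times, 0 of 10 probes were called in limma, beside 8.84% of all tested probes, 1 had an unadjusted p under 0.05, and the difference lay between -0.18 and 0.10. The share of all tested probes with an unadjusted p under 0.05 was not counted, so the unadjusted counts cannot tell whether the members hold an excess.

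Dusp1 was the member with the largest nsPEF difference at 24 h. The 4 nsPEF arrays at 24 h, from 0.83 to 1.03, all lay below the 4 sham arrays, from 1.29 to 1.44. The difference was -0.44 ± 0.07 (SE), or 1.36-fold lower in nsPEF cells (limma adjusted p = 0.00313; p = 0.0286 in a two-sided exact permutation test, the least that 4 arrays against 4 can give). It kept its direction under all 42 alternatives, from -0.50 to -0.36, and missed the threshold in 1, the fit of only the 8 arrays of this time point (limma adjusted p = 0.0512). Leaving out arrays of other times, a plain analysis of variance or another probe filter leaves this difference as it is. Its direction was thus fixed in those alternatives. At 4 h the order was turned: the nsPEF arrays, from 1.23 to 1.36, all lay above the sham arrays, from 0.95 to 1.19. This difference of 0.25 ± 0.07 was not called (limma adjusted p = 0.0632; p = 0.0286 in a two-sided exact permutation test) and was called under 9 of 42 alternatives. It was called without sham replicate 2 or 3 at 0 h or sham replicate 4 at 4 h (adjusted p = 0.0486, 0.0429 and 0.0386). At 0 h it was -0.05 ± 0.07 with overlapping arrays.

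The dependence of the Dusp1 difference on time was itself tested and was called in limma's interaction F test (adjusted p = 0.0142), beside 0.377% of all tested probes. It was the 1 member of 10 so called. From 4 to 24 h Dusp1 rose by 0.31 ± 0.07 (SE) in sham cells (limma adjusted p = 0.00109) and fell by 0.38 ± 0.07 in nsPEF cells (limma adjusted p = 0.000188), where spike-in scaling gave 0.02, at a median of 0.37 over all probes. The change from 4 to 24 h differed by -0.69 ± 0.10 between treatments (limma adjusted p = 0.0118), a contrast called for 0.448% of all tested probes, and a rise in sham with a fall in nsPEF, both called, was found for 12 probes (0.0318% of all tested). The interaction was not called without replicate 1, 2, 3 or 4 of all groups (adjusted p = 0.0968, 0.111, 0.0656 and 0.0669) nor with normexp background correction (adjusted p = 0.0943).

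**Figure D3:**
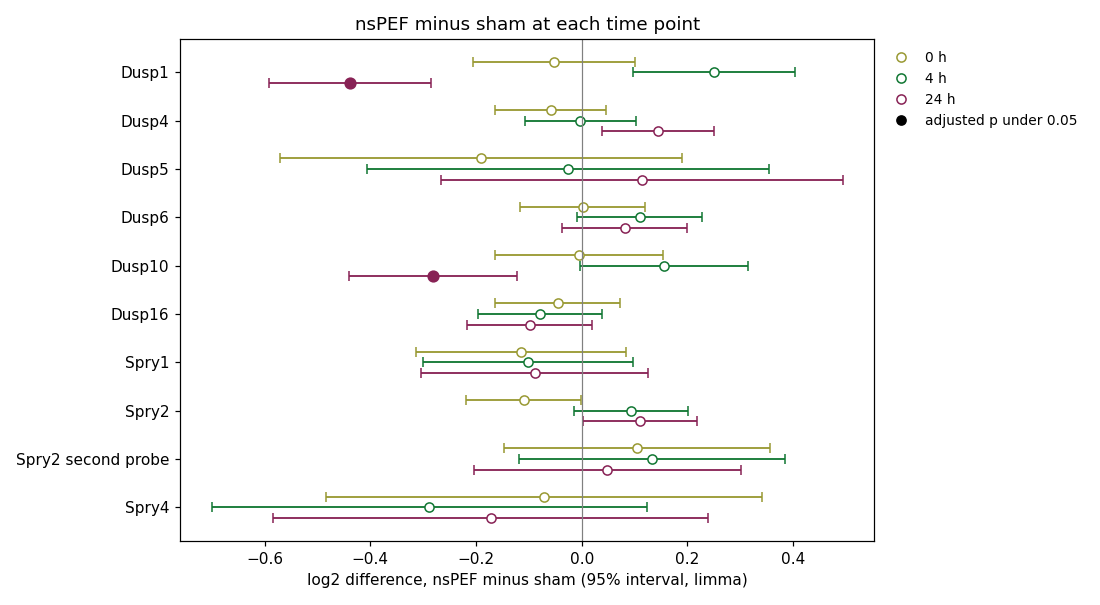
Difference between nsPEF and sham cells for each tested probe at 0, 4 and 24 h: the x axis gives the log2 difference with its 95% interval from limma (n = 4 per group, 3 for Spry1 in E24), and filled dots mark an adjusted p under 0.05. Dusp1 stood at 0.25 at 4 h and at -0.44 at 24 h, Dusp10 at -0.28 at 24 h, and the other members had no call at any time.

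Dusp10 was the second member lower in nsPEF cells at 24 h. The sham arrays stood at -1.06, -0.75, -0.89 and -0.80, and the nsPEF arrays at -1.13, -1.12, -1.14 and -1.24. The nsPEF arrays all lay below the sham arrays, with sham replicate 1 the nearest to them. The difference was -0.28 ± 0.08 (SE; limma adjusted p = 0.0393; p = 0.0286 in a two-sided exact permutation test). As for Dusp1, some alternatives could not move this difference. It kept its direction under all 42 alternatives, from -0.35 to -0.18, and was not called in 13 of them. It was not called without sham replicate 2, 3 or 4 at 24 h (adjusted p = 0.131, 0.0854 and 0.0693) nor without nsPEF replicate 2, 3 or 4 at 24 h (adjusted p = 0.0782, 0.0586 and 0.121). The adjusted p ranged from 0.017 to 0.28 over the alternatives. At 4 h Dusp10 was 0.16 ± 0.08 higher in nsPEF cells, with overlapping arrays and no call (limma adjusted p = 0.246), and its change from 4 to 24 h differed by -0.44 ± 0.11 between treatments without reaching the threshold (limma adjusted p = 0.0738).

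Some uncalled differences had arrays that did not overlap. A two-sided exact permutation test gives p = 0.0286 for any such separation of 4 arrays from 4. How many of all tested probes separate in this way was not counted, so the separation is only a description. Dusp6 and the brighter Spry2 probe were higher on all 4 nsPEF arrays at 4 h by 0.11 ± 0.06 (SE; limma adjusted p = 0.273) and 0.09 ± 0.05 (limma adjusted p = 0.31). Dusp4 at 24 h was 0.14 ± 0.05 higher on all nsPEF arrays (limma adjusted p = 0.1), and was called without nsPEF replicate 1 at 24 h (adjusted p = 0.0235). Dusp16 at 24 h was on all nsPEF arrays below the sham arrays, with a difference of -0.10 ± 0.06 (limma adjusted p = 0.314). Spry1 and Spry4 gave differences between -0.29 and -0.07 at each time with no call. At 4 h spike-in scaling moved the median of all tested probes in nsPEF against sham to 0.20. It then called 5 of 10 member probes, for Dusp1, Dusp4, Dusp6, Dusp10 and Spry2, all higher in nsPEF cells. Beside these, 16.6% of all tested probes were called higher and 0.188% lower. Relative to the median of 0.20 these 5 member differences were 0.25, -0.01, 0.10, 0.15 and 0.09.

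The remaining genes of the pathway were read from 8 lists, each gene by its brightest probe. Their counts from 0 to 4 h stand beside 29.4% of all tested probes called higher and 29.7% lower in sham, and 33.5% and 27.8% in nsPEF cells. The shares for the other times are given above. Most of the 15 immediate-early genes fell steeply, as Dusp1 did. From 0 to 4 h in sham cells 12 of 15 were lower and 3 higher, with a median of -3.25, and in nsPEF cells 11 were lower and 2 higher, with a median of -3.59. In sham cells Fos fell by 7.28 ± 0.10 (SE), Fosb fell by 5.88 ± 0.09, Zfp36 fell by 4.44 ± 0.09 and Btg2 fell by 4.25 ± 0.08. Fos and Fosb code for AP-1 subunits and Btg2 for an antiproliferative factor. At 24 h compared with 0 h all 15 were lower in both treatments, and with spike-in scaling 13 were lower in each and 1 was higher in sham.

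The 10 ERK output genes, which are commonly used as readouts of ERK signalling, mostly rose. From 0 to 4 h 9 were higher and 1 lower in each treatment, with medians of 1.42 in sham and 1.35 in nsPEF cells. In sham Fosl1, an AP-1 subunit stabilised by ERK, rose by 2.99 ± 0.09 (SE), Errfi1, an inhibitor of the epidermal growth factor receptor, by 2.72 ± 0.09, Epha4, an ephrin receptor, by 1.54 ± 0.08, and Etv4, an ETS factor, by 1.48 ± 0.07. From 4 to 24 h all 10 fell in sham and 9 fell in nsPEF cells, and with spike-in scaling 7 fell and 2 rose in sham and 8 fell and 2 rose in nsPEF cells.

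Among the other phosphatases and Sprouty relatives, 4 of 6 tested genes were higher at 4 h in sham and 1 lower, with a median of 0.64. Dusp9, which codes for the ERK phosphatase MKP-4, rose by 2.62 ± 0.07 (SE) in sham and 2.68 ± 0.07 in nsPEF cells, more than any member. Dusp7 rose by 0.87 ± 0.05 and Spred1, a Sprouty-related inhibitor of Ras signalling, by 0.67 ± 0.06, while Dusp8 fell by 0.87 ± 0.13. Spry3 was well above background too rarely to be tested. Of 11 tested atypical dual-specificity phosphatases, 3 were higher and 3 lower at 4 h in sham, with a median of 0.03. Dusp3 rose by 1.46 ± 0.05 and Dusp14 by 1.25 ± 0.06, and Dusp19 fell by 1.02 ± 0.07 and Dusp28 fell by 0.64 ± 0.18. Dusp21 and Dusp26 were not tested.

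The kinases themselves moved in both directions, as did all tested probes, with 29.4% called higher and 29.7% lower at 4 h in sham. In the Ras to ERK list of 19 genes 8 were higher and 5 lower at 4 h in sham, with a median of -0.03. Map2k1, which codes for the ERK kinase MEK1, rose by 1.43 ± 0.06 (SE), and Rasa1, which codes for a GTPase-activating protein of Ras, by 1.05 ± 0.06. Ksr1, a scaffold of the ERK cascade, fell by 0.99 ± 0.21 and Mapk3, which codes for ERK1, fell by 0.98 ± 0.06. In the p38 and JNK list 6 of 13 genes were higher and 4 lower, with a median of 0.35. Map2k3, an activator of p38, rose by 1.77 ± 0.06 and Map3k7, which codes for the upstream kinase TAK1, by 1.18 ± 0.07. Map2k6, another activator of p38, fell by 0.87 ± 0.06 and Map3k5, which codes for the stress-activated kinase ASK1, fell by 0.66 ± 0.12. Among 10 MAP kinase-activated kinases 3 were higher and 3 lower, and Rps6ka5, the kinase MSK1, fell by 2.16 ± 0.20 and Rps6ka1, the kinase RSK1, fell by 0.63 ± 0.06, while Mapkapk3 rose by 0.91 ± 0.09 and Mapkapk5 by 0.68 ± 0.05. Of 15 tested genes for growth factor receptors and ligands 6 were higher and 6 lower. Among the ligands of the epidermal growth factor receptor, Ereg rose by 2.29 ± 0.12 and Hbegf by 2.00 ± 0.09, and Areg, not well above background on any array at 0 h, was at least 4.73-fold higher at 4 h. A lower bound sets each dim array to the lowest signal well above background on it where the probe was dimmer. The receptor gene Pdgfrb fell by 1.71 ± 0.08. Tgfa was not tested.

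**Figure D4:**
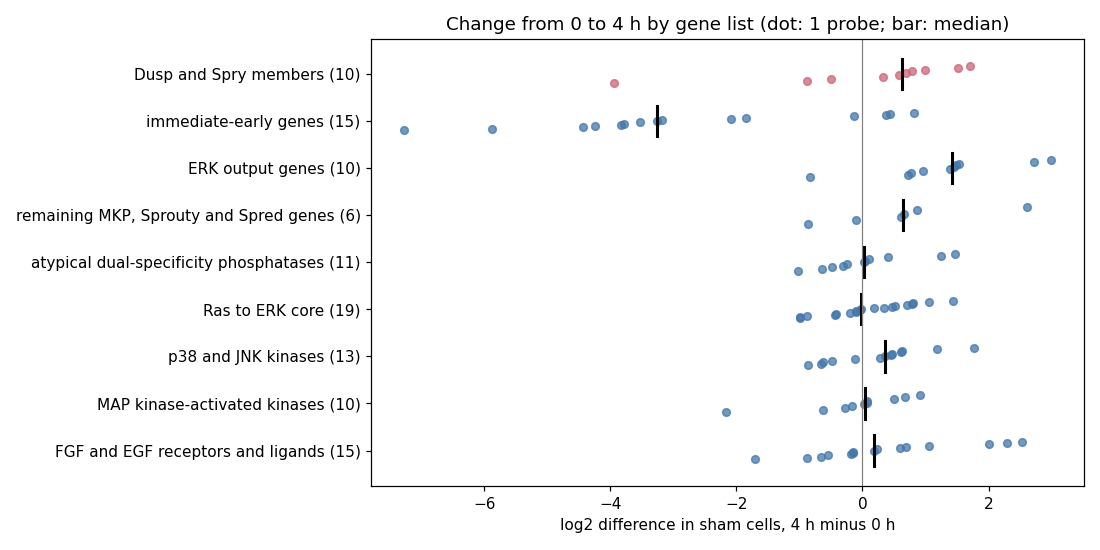
Change from 0 to 4 h in sham cells by gene list: the x axis gives the log2 difference (n = 4 arrays per group), each dot is 1 tested probe, the black bar is the median of the list, and numbers in brackets count the tested probes. Most immediate-early genes and Dusp1 lie on the left, with a median of -3.25 for the list, and 3 of the 15 were called higher. Most ERK output genes, with a median of 1.42, lie on the right with most Dusp and Spry members, and 1 of the 10 was called lower.

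The same lists were then read between nsPEF and sham cells. Of 99 tested genes in all, limma called 0 at 0 h, 5 at 4 h (5.05%, beside 3.31% of all tested probes) and 8 at 24 h (8.08%, beside 4.82%), and 10, 25 and 32 had an unadjusted p under 0.05. The share of all tested probes with an unadjusted p under 0.05 was not counted, so the unadjusted counts cannot tell whether the lists hold an excess. The 5 calls at 4 h were 3 higher and 2 lower. Spike-in scaling called 20 there (20.2%), all higher, beside 16.6% of all tested probes higher and 0.188% lower. The 8 calls at 24 h were 2 higher and 6 lower. Spike-in scaling called 1 higher and 4 lower there (1.01% and 4.04%), beside 1.1% and 1.13% of all tested probes. A plain two-way analysis of variance was run for the members, where it also called 0 at 0 h and at 4 h and 2 at 24 h. At 4 h Dusp15, not well above background on any sham array of that time, was at least 4.67-fold higher in nsPEF cells (limma adjusted p = 0.0242). The nsPEF arrays of that time, where it was high, by themselves met the filter for testing, so this call is only a description. Fosb was higher by 0.38 ± 0.09 (SE; limma adjusted p = 0.0325) and Myc by 0.27 ± 0.06 (limma adjusted p = 0.0174), while Dusp19 was lower by 0.44 ± 0.07 (limma adjusted p = 0.00448) and Map2k6 by 0.28 ± 0.06 (limma adjusted p = 0.017). At 24 h Fos and Egr2, both immediate-early genes, were lower in nsPEF cells by 0.49 ± 0.11 (limma adjusted p = 0.0215) and 0.42 ± 0.10 (limma adjusted p = 0.0186), which is the direction of Dusp1. The 15 genes of that list went both ways, from -0.49 to 0.42 with a median of -0.11, and the other 13 were not called. Dusp9 was higher by 0.43 ± 0.07 (limma adjusted p = 0.00235). The receptor genes Pdgfra, Met and Pdgfrb were lower by 0.24 ± 0.07, 0.21 ± 0.05 and 0.33 ± 0.08, the exchange factor gene Sos1 was lower by 0.31 ± 0.07, and Map2k2 was higher by 0.22 ± 0.06. Among the 10 MAP kinase-activated kinases limma called 0 at any of the 3 times, and 1, 4 and 2 had an unadjusted p under 0.05 at 0, 4 and 24 h.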

How the data were processed

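The members and the gene lists were chosen with earlier results of these data known. Per the file headers and the study's methods, the authors scanned Cy3-labelled one-colour Agilent arrays with spike-in RNA added and read them with Agilent Feature Extraction 12.0, which gave a deposited intensity per spot with background subtracted and trends removed, not scaled between arrays. The deposited log2 values of the whole series, made by the authors with a 75th percentile shift and a median baseline per probe, served as an alternative, and 0 of their columns were left unpaired. Spots marked as not uniform or deviating were left out, other spots of a probe were averaged, and the 75th percentile of each array was subtracted after log2. Saturated member spots numbered 0. Probes well above background on at least 2 of 4 arrays of any group were tested. limma 3.58.1 in R 4.3.3 fitted 6 group means to the 24 arrays, with Benjamini-Hochberg adjustment. The study's two-way analysis of variance has the same 6 means. Exact permutation tests were two-sided. Precision is limited by 4 arrays a group and by how far a probe stands above background. The procedure was tested on simulated data. Promoters were RefSeq windows searched with Python 3.11.15, and plots were made with matplotlib 3.10.9.

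Every member probe is named. From each list the 4 genes with the largest differences from 0 to 4 h in sham cells among those called, the genes called between nsPEF and sham, and those not tested are named. For Dusp1, Dusp6 and Spry4 the 3 most correlated genes are given. Alternatives were quantile, spike-in and detected-probe scaling, normexp background correction with an offset of 50, a floor at the background, testing every probe or those detected on all 4 arrays of a group, marked spots kept, mean of a gene's probes, deposited log2 values, plain analysis of variance, a replicate block, only the 8 arrays of a time point, centring by spot row and signal, and leaving out each array or each replicate number.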

Additional observations from a re-analysis of the deposited data

Results flagged for a closer look

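Levels of 4 arrays in 65 member groups of 4 stood far from the other 3 of their group by Dixon's criterion, and chance alone flags about 1 in 20 such groups. Dusp2 in sham replicate 3 at 4 h was highest at -4.67, with the others between -7.22 and -7.06. Dusp5 in nsPEF replicate 2 at 4 h was highest at -0.78, with the others between -0.96 and -0.95. Dusp10 in nsPEF replicate 4 at 24 h was lowest at -1.24, with the others between -1.14 and -1.12. Spry1 in sham replicate 4 at 4 h was lowest at 1.73, with the others between 2.01 and 2.05. The nsPEF difference of Dusp1 depended on time in the interaction test (limma adjusted p = 0.0142), with 0.25 at 4 h and -0.44 at 24 h.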

How the results depend on the processing

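Over 4938 combinations of a member probe, a test and an alternative, 4816 kept their direction where called and their side of the threshold, 75 lost a call, 36 gained one and 11 had their direction turned. In some combinations the alternative could not move the difference. A turn was counted only where the difference was called in the main fit or in the alternative. Turns without a call in either were left out, as for Spry4 between nsPEF and sham at 24 h, which reached 0.07 under an alternative, and for Spry1 at 24 h against 0 h in nsPEF, which reached 0.20. All 11 counted turns came from spike-in scaling, which used 210 spots of 6 probes. This scaling gave differences at 24 h against 0 h in sham of 0.33 for Dusp6, 0.42 for Spry1, 0.53 for Spry2, 0.41 for the second Spry2 probe and 0.026 for Spry4, and in nsPEF of 0.19 for Dusp6, 0.23 for Dusp10 and 0.14 for the second Spry2 probe. Between 24 h and 4 h it gave 0.037 for the second Spry2 probe in sham and 0.019 for Dusp1 in nsPEF, and for Dusp4 between nsPEF and sham at 4 h it gave 0.19.

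The count of members called between nsPEF and sham at 4 h was 0 and became 1 with quantile normalization, with the percentile over probes detected on all arrays, with the floor, with no filter and with centring by spot row and signal (Dusp1 in each), and 5 with spike-in scaling. Spike-in scaling called 16.7% of all tested probes at this time. At 24 h the count of 2 became 1 with spike-in scaling, normexp and centring by spot row and signal (Dusp10 was lost), and 0 with only the 8 arrays of the time point. The treatment effect went from 0 to 1 with quantile normalization and to 2 with spike-in scaling, and the interaction from 1 to 2 with spike-in scaling and to 0 with normexp. Leaving out arrays gave 0 to 1 members called at 4 h, 1 to 3 at 24 h and 0 to 1 for the interaction. At 24 h against 0 h it gave 4 to 9 in sham, where leaving out replicate 1, 2 or 4 of all groups gave 4, 5 and 5, and 5 to 9 in nsPEF. Both counts from 0 to 4 h ran from 9 to 10. Among single arrays, the sham call of Spry1 at 24 h against 0 h was lost without sham replicate 1, 2 or 4 at 0 h (adjusted p = 0.0632, 0.0514 and 0.112) or 2 or 4 at 24 h (0.0515 and 0.0949), and in nsPEF it was gained without sham replicate 3 or 4 at 0 h or 4 at 4 h (0.0423, 0.046 and 0.0401). For the second Spry2 probe at 24 h against 0 h, the nsPEF call was lost without nsPEF replicate 1 or 2 at 0 h or 1 at 24 h (0.12, 0.082 and 0.0989), and the sham call was gained without nsPEF replicate 4 at 0 h (0.0477). Where not named above, the cause of these changes was not tested.

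Deviations of sham and nsPEF arrays of the same replicate number were at most weakly correlated (r from -0.04 to 0.09 in 12 pairs, 0 over 0.1). The same number was the best match among 4 arrays in 7 of 12 pairs, including every pair at 4 h, which is more than an even pick would give. Arrays of the same number also shared the column of their slide, and the labels do not tie numbers to cell suspensions. A shared deviation was not tested. With the replicate number as a block the counts of members called were 0, 0 and 2 between nsPEF and sham at 0, 4 and 24 h, and 10 and 10 from 0 to 4 h in sham and nsPEF, and no call changed. Signal near background limits Dusp2 and Spry4.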
